A study of Mus musculus with 18 samples.

Results

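Hoxb13, the Hox gene that sits at the posterior end of the HoxB cluster, divided 18 RNA-seq libraries of mouse colon into 6 in which it was almost absent and 12 in which it was abundant. The libraries form 3 treatment groups of 6. One received vector and serves as control, one received TNBS (trinitrobenzene sulfonic acid, which provokes colitis in rodents), and one is named IBC after isobavachalcone, a chalcone from plants. The labels give no strain, sex, age, dose or time, do not state if TNBS was given together with IBC, and name no position along the colon for any library. They also do not say that libraries came from separate animals, so p-values measure the spread between libraries, which may be technical. The sets were chosen by the measured level of Hoxb13 alone: a library was called Hoxb13-low where Hoxb13 was under 10 CPM (its count scaled to the library's total), and Hoxb13-high otherwise.

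The 6 Hoxb13-low libraries were vector 3 and 4, TNBS 2 and 3, and IBC 2 and 5, so each treatment group held 2 low and 4 high libraries. Hoxb13 stood at 0.217 and 1.46 CPM in vector 3 and 4, at 0.650 and 0.111 CPM in TNBS 2 and 3, and at 0 CPM in both IBC libraries. The 12 high libraries lay between 131 CPM (IBC 4) and 486 CPM (TNBS 5). Nothing lay between 1.46 and 131 CPM, and any limit in that gap gives the same sets. These values chose the sets and are given without a test. The same 6 libraries had been seen to stand apart from the others before the limit was set. The p-values of other genes therefore describe how far the sets differed and are no independent evidence that the sets exist.

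Hox genes encode homeodomain transcription factors and lie in 4 clusters, HoxA to HoxD. Within a cluster their order along the chromosome matches the order in which they are expressed from head to tail, so that genes of paralog group 13 mark the most posterior tissue. The adult gut keeps such a pattern: different Hox combinations persist along its length, and group 13 genes are known for expression in the hindgut. The large bowel also changes in function along its length, in tasks such as bile acid uptake, fermentation, detoxification, and salt and water recovery.

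Every library carried transcripts typical of colon, so the label was compared with markers. Muc2, the main colonic mucin, ranged from 980 to 18441 CPM over the 18 libraries. Genes of small-intestinal absorption, a list described further on, summed to 1429 to 2073 CPM in the low and 328 to 888 CPM in the high libraries. Levels are given from here on as CPM on totals scaled by TMM (edgeR's correction for composition).

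Depth and composition differed between the sets. Totals ran from 64003983 to 78874868 counts in the 6 low and from 55669263 to 66253948 in the 12 high libraries, and were larger in the low set (exact permutation p = 0.00129, two-sided, 18564 assignments). The mitochondrial share was 8.47 ± 4.72% against 5.80 ± 1.21% (mean ± SD, exact permutation p = 0.0416), with 18% in vector 3. Thinning every library to the smallest total gave 3256 called genes where the full counts gave 3248. Of the 6 low libraries, vector 4 stood apart in its HoxA genes, and several results that change without it are given with and without it. Counts of some other gene lists also change without vector 4 and are given for all libraries only. Among the high libraries, pancreatic acinar transcripts summed to 30529 CPM in vector 6, against at most 385 CPM in the other 17. Leaving out TNBS 5, a high library, raised the number of called genes to 5048, while leaving out any other single library gave between 2427 and 3426.

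Of 20854 genes tested besides Hoxb13, 3248 (15.6%) differed between the sets with treatment as a covariate, at an adjusted p under 0.05 (edgeR's quasi-likelihood test with Benjamini-Hochberg adjustment, two-sided). Of these, 1710 (8.2%) were higher and 1538 (7.38%) lower in the low libraries. On log2(FPKM + 1) with limma the split was 1202 higher and 2053 lower. Differences over 1 on the log2 scale were called for 1574 genes (7.55%). The libraries of the sets did not overlap for 600 genes (2.88%), of which 304 (1.46%) were higher and 296 (1.42%) lower in the low set. The median log2 difference over all genes was -0.01.

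The Hox genes moved in opposite directions by cluster. Of 38 Hox genes besides Hoxb13, 36 are in the table and 30 had enough counts to be tested, and 15 of the 30 were higher and 7 lower in the low libraries. All 8 tested HoxB genes and all 3 tested HoxC genes were higher. Of 7 HoxC genes in the table only these 3 had enough counts, and none of them exceeded 0.303 CPM in a high library. They were testable mainly through the low libraries, so their direction was largely fixed by the filter and is no support. Hoxc8, not tested, reached 0.278 CPM in the low and 0.590 CPM in the high libraries. None of 11 HoxA genes was higher and 5 were lower. In HoxD the direction changed along the cluster, with 4 anterior and central genes (Hoxd3, Hoxd4, Hoxd8 and Hoxd9) higher and 2 at the posterior end (Hoxd12 and Hoxd13) lower, of 8 tested. The background over all genes was 8.2% higher and 7.38% lower. Without vector 4 the counts were 0 higher and 8 lower of 11 in HoxA, 8 and 0 of 8 in HoxB, 4 and 0 of 4 in HoxC, and 4 and 1 of 8 in HoxD, where Hoxd12 no longer passed. Hoxd12 passed in 17 of 32 alternatives, and lost its call when any 1 of vector 1, 4 or 6, TNBS 2 or 3, or IBC 2, 3, 5 or 6 was left out. In HoxA, Hoxa6 (edgeR adjusted p = 0.0397) passed in 18 of 32 alternatives. It lost its call when any 1 of vector 3, TNBS 1, 2, 3 or 6, or any IBC library was left out. Hoxa7 lost its call without TNBS 2 or without IBC 5.

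**Figure D1:**
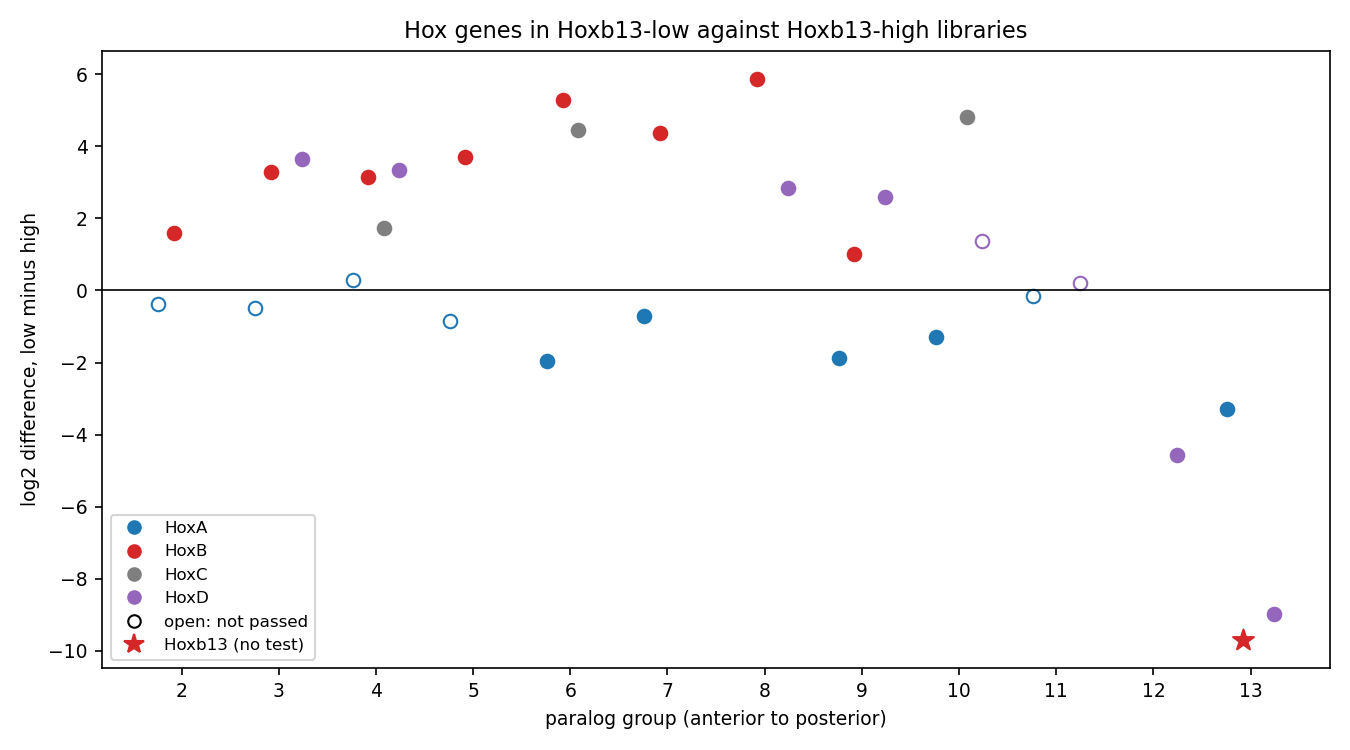
Log2 difference of tested Hox genes of paralog groups 2 to 13, Hoxb13-low minus Hoxb13-high, against the group from anterior to posterior, coloured by cluster. Filled points passed the test and open points did not. HoxB genes lie above 0 up to group 9, HoxA genes lie at or below 0 apart from Hoxa4, and Hoxd13 and Hoxb13 (star, not tested) lie lowest.

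Hoxb6 and Hoxb8, central HoxB genes, were the most raised of the cluster. Hoxb6 stood at 98.3 and 15.7 CPM in vector 3 and 4, at 92.3 and 48.0 CPM in TNBS 2 and 3, and at 79.2 and 93.8 CPM in IBC 2 and 5. In the 12 high libraries it ran from 1.30 to 2.84 CPM with a median of 1.81. All 6 low libraries lay above all 12 high ones, with vector 4 the lowest of the 6 (log2 difference 5.28 ± 0.28, SE, edgeR adjusted p = 5.9e-09). Hoxb8 stood at 47.7 and 4.58 CPM in vector 3 and 4, at 45.4 and 20.3 CPM in TNBS 2 and 3, and at 48.3 and 53.3 CPM in IBC 2 and 5, against 0.278 to 1.23 CPM in the high libraries. Again no library overlapped (5.88 ± 0.36, edgeR adjusted p = 2.06e-08).

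The other HoxB genes followed with smaller differences. Hoxb3, Hoxb4, Hoxb5 and Hoxb7 differed by 3.29, 3.14, 3.70 and 4.36 on the log2 scale, each without overlap between the sets. Hoxb2, at the anterior end, differed by 1.59 and overlapped. Hoxb9 was the most abundant HoxB gene in the low libraries at 67.3 to 130 CPM, and it was also well expressed in the high ones at 23.1 to 61.7 CPM, so its difference was 1.00 ± 0.20 (edgeR adjusted p = 0.00191). Hoxb1 had too few counts to be tested. The HoxB cluster thus held a step between Hoxb9, present in both sets, and Hoxb13, near 0 in 1 set.

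Hoxd13 was near 0 in all 6 low libraries, with 0.189 and 0.0886 CPM in vector 3 and 4, 0.192 and 0.119 CPM in TNBS 2 and 3, and 0.0647 and 0.155 CPM in IBC 2 and 5. The high libraries fell into 2 ranges. Hoxd13 reached 133 and 95.7 CPM in vector 1 and 6, 76.5 and 188 CPM in TNBS 1 and 5, and 162 and 154 CPM in IBC 3 and 6. In the remaining high libraries it stayed at 5.14 and 3.70 CPM in vector 2 and 5, 3.20 and 2.34 CPM in TNBS 4 and 6, and 4.55 and 1.83 CPM in IBC 1 and 4. The 18 libraries thus held 3 levels of Hoxd13, each with 2 libraries per treatment group, and the Hoxb13-low set is the lowest of them. Hoxb13 itself stood at 274 to 486 CPM in the 6 libraries with the most Hoxd13 and at 131 to 297 CPM in the other 6 of the high set (CPM on unscaled totals), and within each treatment group the former 2 lay above the latter 2. Over all high libraries the difference was -8.98 ± 1.56 (edgeR adjusted p = 0.000718), with no overlap.

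Neighbours of Hoxd13 showed the same 2 ranges within the high libraries. Hoxd12 stood at 0.596 to 6.47 CPM in the 6 high libraries rich in Hoxd13 and at 0 to 0.472 CPM in the other 6, and it was at 0 in 4 of the 6 low libraries. Hoxd11 stood at 4.30 to 15 CPM and at 0.187 to 1.67 CPM in the same groups of 6, and Hoxd10 at 3.78 to 9.37 CPM and at 0.431 to 1.27 CPM. In the low libraries Hoxd11 was at 1.39 to 11.2 CPM and Hoxd10 at 2.99 to 19.8 CPM, so that neither gene differed between the low and the high set (Hoxd11 0.22 ± 0.79, edgeR adjusted p = 0.889, and Hoxd10 1.36 ± 0.63, edgeR adjusted p = 0.157). Hoxd3, Hoxd4 and Hoxd8 were higher in every low library than in any high one, by 3.65, 3.36 and 2.85 on the log2 scale. These ranges were noticed in the values and were not tested.

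**Figure D2:**
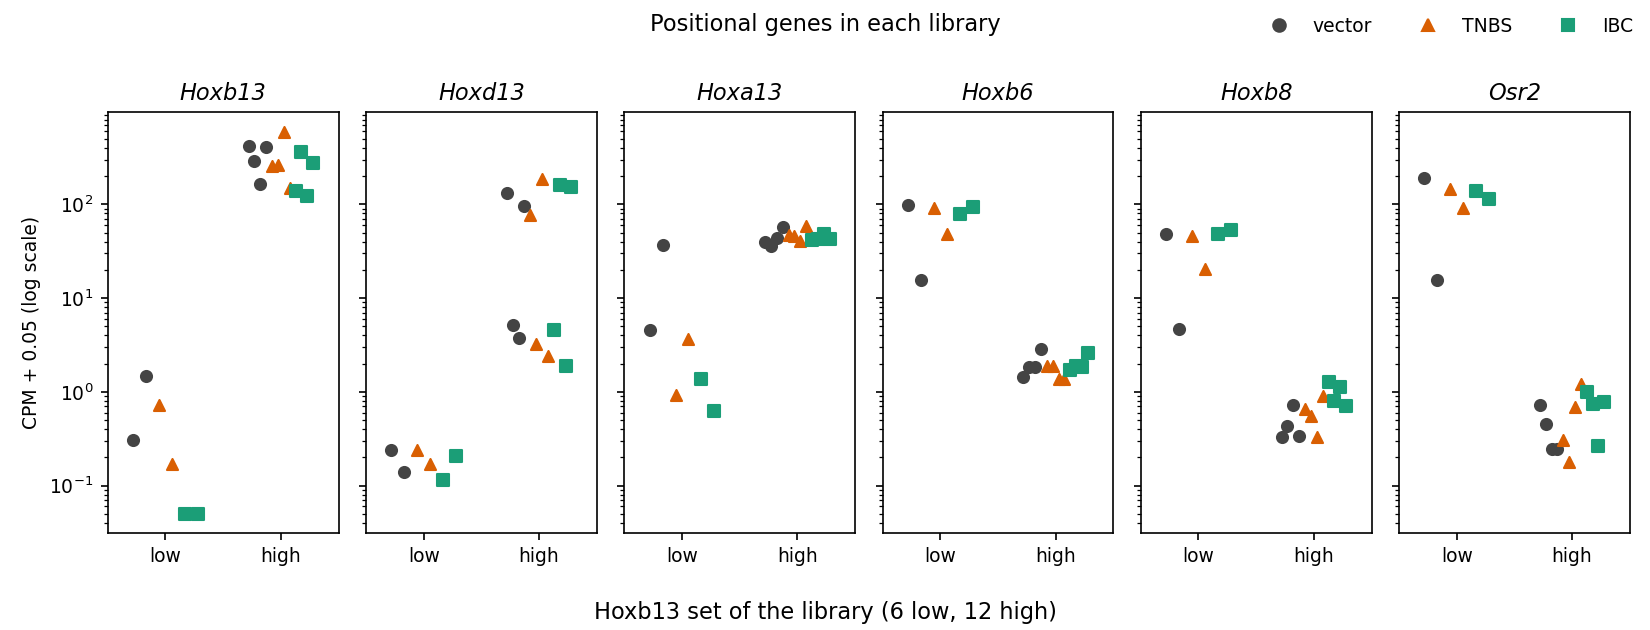
CPM + 0.05 on a log axis of Hoxb13, Hoxd13, Hoxa13, Hoxb6, Hoxb8 and Osr2 in every library, by set (6 low, 12 high) and treatment group (symbol). Hoxd13 lies at 3 levels, vector 4 is the low library that lies among the high ones for Hoxa13, and it is the lowest of the low set for Hoxb6, Hoxb8 and Osr2.

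The starts of Hoxb8, which rose most among the Hox genes, and of Hoxd13, which fell most of those tested, are shown because posterior Hox proteins are known to prefer sites of the form TTTATNG. The sequences are the 250 bases before the RefSeq start (GRCm38.p6, plus strand for both), with every match to TTTATNG on either strand in capitals. The Hoxb8 window (chr11:96281655-96281904) held 3 matches and the Hoxd13 window (chr2:74667975-74668224) held none.
Hoxb8: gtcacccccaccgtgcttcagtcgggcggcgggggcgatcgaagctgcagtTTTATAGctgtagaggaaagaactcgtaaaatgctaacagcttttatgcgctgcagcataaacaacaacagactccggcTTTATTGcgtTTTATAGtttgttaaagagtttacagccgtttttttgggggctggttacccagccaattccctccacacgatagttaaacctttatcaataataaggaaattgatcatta
Hoxd13: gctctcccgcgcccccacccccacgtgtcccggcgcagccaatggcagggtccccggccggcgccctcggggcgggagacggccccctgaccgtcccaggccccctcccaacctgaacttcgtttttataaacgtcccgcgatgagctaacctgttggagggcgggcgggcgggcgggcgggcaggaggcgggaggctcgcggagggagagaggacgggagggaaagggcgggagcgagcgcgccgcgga
Of all 32851 promoter windows of that length, 9.81% held the motif. It was in 8.56% of 257 windows of genes higher and in 10.6% of 263 windows of genes lower in the low set without overlap. The share was thus near the background in both directions. Of 6 genes looked up (Hoxb13, Hoxb6, Hoxb8, Hoxd13, Reg3b and Reg3g), 4 had an entry.

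HoxA was the cluster in which 1 library decided the size of the difference. Hoxa13, the group 13 gene of HoxA, stood at 36.1 to 58.0 CPM in the high libraries with little spread. In the low libraries it was at 4.48 CPM in vector 3, 0.879 and 3.64 CPM in TNBS 2 and 3, and 1.31 and 0.577 CPM in IBC 2 and 5, but at 37.2 CPM in vector 4. That library lay within the range of the high set although its Hoxb13 and Hoxd13 were near 0. The difference was -3.30 ± 0.70 (edgeR adjusted p = 0.00358) and -4.44 without vector 4. Hottip, a noncoding RNA transcribed from the posterior end of HoxA, was at 0 to 0.158 CPM in 5 low libraries, at 5.94 CPM in vector 4 and at 12.5 to 42.4 CPM in the high ones. Its difference was -5.56 ± 0.97 and -8.06 without vector 4.

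Hoxa9 and Hoxa10 had the same arrangement. Hoxa9 was at 5.25 to 12.5 CPM in 5 low libraries, at 51.4 CPM in vector 4 and at 34.8 to 74.5 CPM in the high ones (log2 difference -1.88 ± 0.41, edgeR adjusted p = 0.00426). Hoxa10 was at 10.3 to 20.4 CPM, 61.0 CPM and 40.8 to 63.8 CPM respectively (-1.30 ± 0.29, edgeR adjusted p = 0.00531). Hoxa11 did not pass over all libraries (-0.15 ± 0.26, edgeR adjusted p = 0.756), with 32.9 CPM in vector 4 above every high library, and passed without it (-0.56, edgeR adjusted p = 0.0370). Its antisense partner Hoxa11os stood at 4.52 to 81.4 CPM in the low and 91.1 to 193 CPM in the high libraries (-3.24 ± 0.46, edgeR adjusted p = 0.000118). The sources do not say that counting used strand, so reads of Hoxa11 and Hoxa11os cannot be told apart. Hoxa2, Hoxa3, Hoxa4 and Hoxa5 did not pass, with differences from -0.84 to 0.29.

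HoxC genes were barely expressed. Hoxc10 was at 0.0886 to 1.47 CPM in the low libraries and at or below 0.184 CPM in the high ones, where the median was 0 (4.82 ± 0.93, edgeR adjusted p = 0.00159). Hoxc6 was at 0.0380 to 1.88 CPM and at or below 0.262 CPM (4.44 ± 0.83, edgeR adjusted p = 0.0013). In both genes vector 4 was the lowest of the low set. Hoxc12 and Hoxc13 are not analysed here.

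Among 29 tested transcription factors that pattern the gut outside the Hox clusters, 7 (24.1%) were higher and 3 (10.3%) lower in the low libraries. Over all genes the shares were 8.2% and 7.38%, so the share of lower factors was near the background. Osr2, an odd-skipped zinc finger factor, differed far more than the rest. It stood at 191 and 15.6 CPM in vector 3 and 4, at 145 and 91.1 CPM in TNBS 2 and 3, and at 140 and 113 CPM in IBC 2 and 5. In the high libraries it did not exceed 1.15 CPM, with a median of 0.520, so the sets were far apart although vector 4 was well under the others (7.83 ± 0.48, edgeR adjusted p = 2.06e-08). Tbx3, a T-box factor, rose from 3.55 to 10.6 CPM in the high to 18 to 37.1 CPM in the low libraries (1.77 ± 0.19, edgeR adjusted p = 6.6e-06).

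The other 5 higher factors were Gata5, Hand1, Cdx2, Hand2 and Meis1, with log2 differences from 0.74 to 2.13. Cdx2, the homeobox factor that specifies intestinal epithelium, was at 231 to 414 CPM in the low and 40.1 to 251 CPM in the high libraries (1.35 ± 0.34, edgeR adjusted p = 0.0101). The factors lower in the low set were Isl1, a LIM homeobox factor (-2.39 ± 0.24, edgeR adjusted p = 3.41e-06), Foxa2, a forkhead factor of endoderm (-1.69 ± 0.19, edgeR adjusted p = 9.01e-06), and Pdx1 (-0.92 ± 0.29, edgeR adjusted p = 0.0385). Isl1 and Foxa2 did so with no overlap between the sets. Cdx1, Hnf4a, Gata4 and Gata6 did not pass.

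Reg3b and Reg3g, secreted lectins that act on gut bacteria, were among the largest rises of all genes named. Reg3b stood at 598 and 1267 CPM in vector 3 and 4, at 5249 and 22680 CPM in TNBS 2 and 3, and at 3092 and 7593 CPM in IBC 2 and 5. The high libraries spread from 0.203 to 176 CPM with a median of 3.70. The sets did not overlap, but both spread widely (8.37 ± 1.08, edgeR adjusted p = 4.33e-05). Reg3g ran from 350 CPM in vector 3 to 4670 CPM in TNBS 3 in the low and from 0.188 to 61.1 CPM in the high libraries (7.52 ± 0.86, edgeR adjusted p = 1.2e-05). Reg3a was raised at a low level, 0.949 to 8.55 CPM against at most 1.21 CPM (5.73 ± 1.16, edgeR adjusted p = 0.0024), and reads may be split among these close relatives.

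The starts of Reg3b and Reg3g lie on the same chromosome, and their windows are shown as those of a pair of related genes that both rose strongly. As above, they are the 250 bases before the RefSeq start in GRCm38.p6 with TTTATNG matches on either strand in capitals. The Reg3b window (chr6:78370635-78370884, plus strand) held none and the Reg3g window (chr6:78468875-78469124, minus strand) held 2.
Reg3b: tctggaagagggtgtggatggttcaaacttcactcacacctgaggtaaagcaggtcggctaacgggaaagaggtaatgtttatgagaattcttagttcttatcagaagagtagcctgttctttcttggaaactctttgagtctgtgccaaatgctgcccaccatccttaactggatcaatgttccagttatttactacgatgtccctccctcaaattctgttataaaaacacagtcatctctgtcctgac
Reg3g: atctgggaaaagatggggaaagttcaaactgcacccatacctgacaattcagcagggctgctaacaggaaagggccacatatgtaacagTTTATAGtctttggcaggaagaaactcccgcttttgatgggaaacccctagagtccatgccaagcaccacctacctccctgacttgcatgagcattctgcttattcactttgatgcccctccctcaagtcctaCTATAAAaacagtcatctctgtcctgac
A match is a description of the letters and is no evidence of binding.

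Of 18 tested genes of epithelial antimicrobial defence, 7 were higher and 2 lower, against a background of 8.2% and 7.38%. Besides the 3 Reg3 genes, Mmp7, a protease that activates defensins (3.79 ± 0.65, edgeR adjusted p = 0.000611), Dmbt1, Nos2 and Saa3 were higher. Pla2g2a, a secreted phospholipase that lyses bacteria, was lower without overlap, at 15.7 to 73.0 CPM against 91.8 to 1110 CPM (-2.96 ± 0.50, edgeR adjusted p = 0.000554). Ccl28 fell by 0.82 on the log2 scale. Lcn2, Duox2 and Itln1 did not pass.

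Several genes of bile acid handling were higher. Slc51a, the alpha subunit of the basolateral bile acid exporter, stood at 199 and 36.0 CPM in vector 3 and 4, at 319 and 201 CPM in TNBS 2 and 3, and at 301 and 213 CPM in IBC 2 and 5. The high libraries did not exceed 3.91 CPM, with a median of 0.554 (7.48 ± 0.66, edgeR adjusted p = 9.84e-07). Its partner subunit Slc51b was at 36.6 to 160 CPM in the low and 3.25 to 37.9 CPM in the high libraries, and overlapped only between vector 4 and TNBS 5 (2.50 ± 0.33, edgeR adjusted p = 4.83e-05). Slc10a2, the apical bile acid transporter, was at 78.4 to 333 CPM against 7.24 to 51.0 CPM (3.17 ± 0.38, edgeR adjusted p = 1.78e-05). Nr1h4, the bile acid receptor FXR, was at 106 to 223 CPM against 27.3 to 77.4 CPM (1.67 ± 0.19, edgeR adjusted p = 9.56e-06). Fabp6, the cytosolic bile acid carrier, did not pass (1.22 ± 0.48, edgeR adjusted p = 0.0926).

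Across 20 tested genes of small-intestinal absorption, 11 were higher and 1 lower, with a median log2 difference of 1.17, against 8.2% and 7.38% of all genes. The list includes bile acid genes given above, such as Nr1h4, Slc10a2 and Slc51b, so these counts are not separate from them. The higher genes included Fabp2 (2.21), the sucrase-isomaltase Sis (4.59, but at most 13.5 CPM), the cholesterol transporter Npc1l1 (2.51, at most 1.72 CPM) and the meprin subunits Mep1a and Mep1b. The lower one was Slc15a1, the peptide transporter PEPT1, at 4.14 to 25.5 CPM against 25.2 to 165 CPM (-2.73 ± 0.44, edgeR adjusted p = 0.000374). Without vector 3 and 4 together 8 of 21 were higher and 1 lower. Of 19 tested genes of surface colonocytes, 11 were higher and none lower (median 0.94), and 7 of 19 without vector 3 and 4. Prap1, a proline-rich acidic protein of the gut epithelium, rose most of the list (5.75 ± 0.64, edgeR adjusted p = 9.81e-06), with 5.58 to 55.0 CPM against at most 1.13 CPM.

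Of 30 tested genes of xenobiotic metabolism, 17 were higher and 2 lower (median 1.05), against 8.2% and 7.38% of all genes, and without vector 4, or without vector 3 and 4, the counts were again 17 and 2. Cyp4b1, a cytochrome P450, stood at 119 and 16.9 CPM in vector 3 and 4, at 85.0 and 26.9 CPM in TNBS 2 and 3, and at 136 and 49.4 CPM in IBC 2 and 5, against 0.811 to 2.04 CPM in the high libraries (5.72 ± 0.33, edgeR adjusted p = 1.35e-08). The carboxylesterases Ces2a and Ces2e, which hydrolyse ester drugs, rose by 2.28 and 1.63 on the log2 scale, and Ugt1a1, which conjugates bilirubin, by 3.30. Ugt1a genes share exons, so their reads may be split. Adh1, an alcohol dehydrogenase that also oxidises retinol, went the other way with no overlap, at 48.6 to 256 CPM against 727 to 1803 CPM (-2.97 ± 0.31, edgeR adjusted p = 4.87e-06).

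The Cyp2c genes of chromosome 19, chosen after their values were seen, changed in opposite directions by position. Cyp2c55, Cyp2c65 and Cyp2c66 lie next to each other at one end of the 9 tested genes and were all higher. Cyp2c65 stood at 75 CPM in vector 4 and at 152 to 362 CPM in the other low libraries, against 2.21 to 24.1 CPM (4.77 ± 0.53, edgeR adjusted p = 9.39e-06). Cyp2c55 was at 1235 to 3221 CPM against 28.8 to 476 CPM. The next genes along the chromosome, Cyp2c67 (-3.12 ± 0.46), Cyp2c68 (-3.44 ± 0.50) and Cyp2c40 (-2.43 ± 0.37), were lower, as was Cyp2c23 at the far end (-1.60 ± 0.51). Cyp2c69 and Cyp2c70 did not pass. These genes are near-identical in places and their reads may be split.

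**Figure D3:**
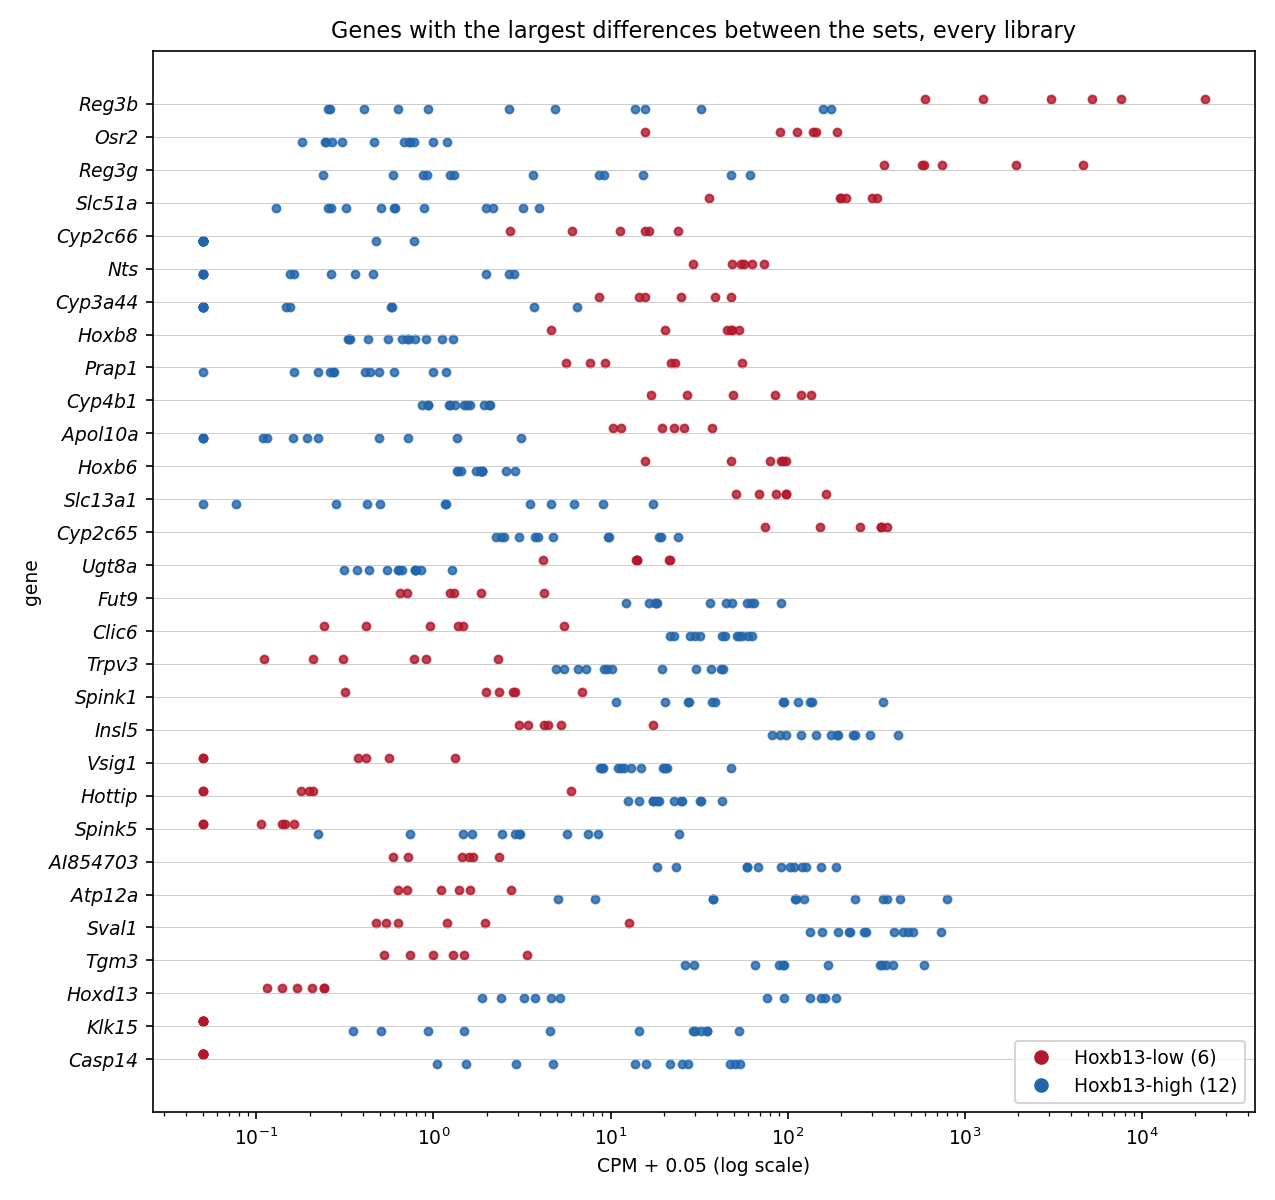
CPM + 0.05 on a log axis, in every library, of the 15 genes with the largest log2 differences in each direction among called genes whose sets do not overlap. Red points are the 6 low and blue points the 12 high libraries, and for each gene the 2 colours are separate.

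Several genes higher in the low libraries were almost silent in the high ones. Nts, the gut hormone neurotensin, was at 29.2 to 73.7 CPM in the low set and at most 2.78 CPM in the high set (6.92 ± 0.87, edgeR adjusted p = 3.42e-05). Cyp3a44 was at 8.58 to 47.8 CPM against at most 6.38 CPM, and Apol10a, an apolipoprotein L, at 10.3 to 37.3 CPM against at most 3.07 CPM. Slc13a1, a sodium sulfate cotransporter, was at 51.0 to 165 CPM against at most 17.3 CPM (4.80 ± 0.91, edgeR adjusted p = 0.00146). Ugt8a, which makes galactosylceramide, was at 4.10 CPM in vector 4 and at 13.8 to 21.6 CPM in the other low libraries, against 0.264 to 1.23 CPM. Retinoid genes included Aldh1a1, which makes retinoic acid, at 378 to 852 CPM against 18.3 to 100 CPM (3.58 ± 0.31, edgeR adjusted p = 8.78e-07), and Isx, a homeobox repressor of vitamin A uptake, at 96.1 to 200 CPM against 1.61 to 38.7 CPM (3.29 ± 0.55, edgeR adjusted p = 0.000496). Of 17 retinoid genes tested, 5 were higher and 1, Bco1, lower, against 8.2% and 7.38% over all genes.

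Genes lower in the low libraries included several known from cornified epithelium, and a kallikrein protease. The families of these genes did not all fall. Of 11 tested Klk genes 1 was higher and 1 lower. Of 6 Tgm genes none was higher and 1 lower, and of 5 Sprr genes 1 was higher and none lower. Over all genes 8.2% were higher and 7.38% lower. Casp14, the caspase of cornification, had 0 counts in all 6 low libraries and stood at 0.993 to 53.7 CPM in the high ones, with a median of 18.7. Klk15, a kallikrein protease, likewise had 0 counts in all low libraries and 0.302 to 53.4 CPM in the high ones. No fold is given for either. Tgm3, the epidermal transglutaminase, was at 0.477 to 3.34 CPM against 26.2 to 588 CPM (-7.33 ± 0.72, edgeR adjusted p = 2.72e-06). Spink5, an inhibitor of kallikreins, was at or below 0.113 CPM against 0.172 to 24.4 CPM, and Trpv3, a warmth-gated channel of keratinocytes, at 0.0597 to 2.25 CPM against 4.90 to 43.0 CPM (-5.00 ± 0.64, edgeR adjusted p = 4.34e-05).

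Of 16 tested markers of anorectal squamous epithelium, 2 (12.5%) were higher and 3 (18.8%) lower in the low set, against 8.2% and 7.38% over all genes, and the summed level was 460 to 896 CPM in the low and 343 to 1660 CPM in the high libraries. Krt5, which defines its basal layer, did not exceed 0.589 CPM in any library. Krt14 reached 105 CPM in 1 high library and 17 CPM in the low set and did not pass (-1.69 ± 0.85, edgeR adjusted p = 0.192). Krt13 was lower without overlap, at 0.129 to 0.522 CPM against 0.692 to 80.2 CPM (-4.64 ± 1.07, edgeR adjusted p = 0.00602). Sprr1a, a cornified envelope protein, was higher (2.62 ± 0.58, edgeR adjusted p = 0.00444), though not without vector 3 and 4 together. In that setting none of 17 tested markers was higher and 2 were lower. Sbsn, the other higher marker, passed in 16 of 32 alternatives.

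Other genes lower in the low set act in transport and in the mucus. Atp12a, the colonic proton-potassium pump, was at 0.577 to 2.70 CPM against 4.97 to 795 CPM (-7.17 ± 1.06, edgeR adjusted p = 0.000164). Aqp4, a water channel, was at 11.8 CPM or more with 1 library at 396 CPM in the low set, against 265 to 1390 CPM (-3.69 ± 0.70, edgeR adjusted p = 0.00142). Fxyd4, which modulates the sodium pump, did not exceed 0.127 CPM in the low set and ranged from 0 to 150 CPM in the high set. Of 11 tested genes of sodium absorption through ENaC, 1 (Nedd4l) was higher and 3 (Fxyd4, Scnn1a and Scnn1g) lower, against 8.2% and 7.38% over all genes. Scnn1g passed in 15 of 33 alternatives and not without vector 4 (edgeR adjusted p = 0.0926), where 2 of the 11 were lower. Of the 18 alternatives that leave out 1 library, it passed only without vector 5, TNBS 1, TNBS 2 or TNBS 6. Car1, a carbonic anhydrase of colonocytes, rose from a high level, at 2987 to 14834 CPM against 254 to 2009 CPM (3.26 ± 0.44, edgeR adjusted p = 7.13e-05). Sval1, Spink1, Vsig1, Clic6, Fut9 and the predicted gene AI854703 were also among the 15 largest falls, from -7.31 to -4.69.

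Hormone genes of enteroendocrine cells went both ways. Of 23 tested, 8 were higher (Nts, Sct, Pcsk1, Sst, Chga, Scg3, Tph1 and Pcsk1n) and 4 lower (Insl5, Ghrl, Pyy and Rfx6). These are 34.8% and 17.4%, against 8.2% and 7.38% over all genes. Insl5, a peptide of colonic L cells, stood at 5.19 and 17.2 CPM in vector 3 and 4, at 3.35 and 4.16 CPM in TNBS 2 and 3, and at 4.38 and 3.00 CPM in IBC 2 and 5, against 81.4 to 421 CPM in the high libraries (-5.07 ± 0.49, edgeR adjusted p = 2.18e-06). Pyy, another L cell peptide, was at 41.3 to 82.2 CPM against 90.0 to 795 CPM (-2.22 ± 0.38, edgeR adjusted p = 0.000703). Gcg, the glucagon gene that L cells also express, did not pass (-0.48 ± 0.21, edgeR adjusted p = 0.137). Sst, made by D cells, was at 17.6 to 40.3 CPM against 5.71 to 14.7 CPM (1.30 ± 0.20, edgeR adjusted p = 0.000218).

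Of 19 tested goblet and mucus genes, 3 (15.8%) were higher and 2 (10.5%) lower, against 8.2% and 7.38% over all genes, and Muc2 did not pass (0.67 ± 0.52, edgeR adjusted p = 0.421). Of 19 stem and cycling genes, Prom1 was higher, and Smoc2 and the stem cell receptor Lgr5 were lower, at 1.83 to 4.34 CPM against 3.64 to 17.2 CPM for Lgr5 (-1.29 ± 0.31, edgeR adjusted p = 0.00853). In the BMP list, Bmp3 (2.24 ± 0.25) and Fst (2.32 ± 0.35), both antagonists of activin or BMP signalling, were higher without overlap, while Grem1, another BMP antagonist, was lower (-2.10 ± 0.41, edgeR adjusted p = 0.00178). In the Wnt list 2 of 18 were higher and 4 lower, among them Wnt2 and Sfrp2. Among phospholipase genes, chosen after their values were seen, Pla2g2f and Pla2g4f fell by 4.13 and 4.05 on the log2 scale without overlap.

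**Figure D4:**
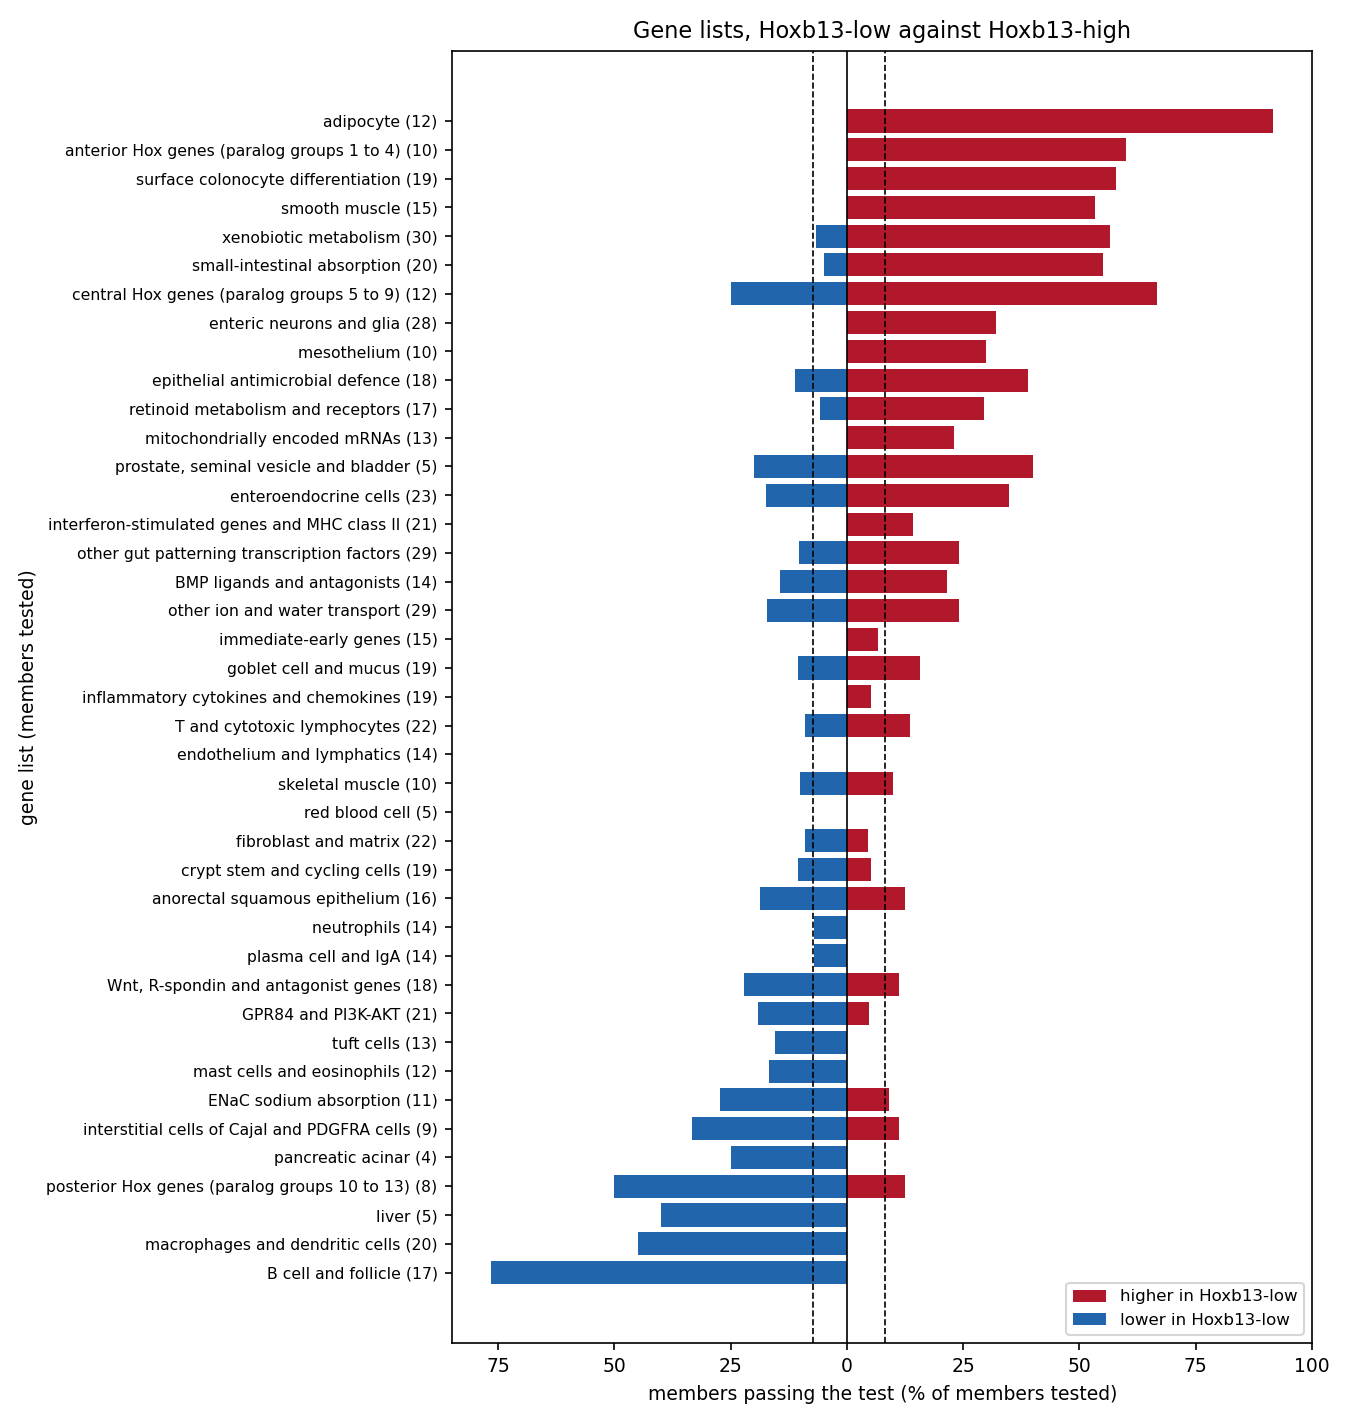
Share of the tested members of each gene list that passed the test, higher in the low libraries to the right (red) and lower to the left (blue), with the number tested in brackets. Dashed lines mark the shares over all genes, 8.2% and 7.38%. Adipocyte genes have the largest share to the right and B cell genes the largest to the left.

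The sets also differed in transcripts of cells other than epithelium. Bulk RNA cannot tell a change in the number of cells of a type from a change in RNA per cell. Of 12 adipocyte genes, 11 were higher in the low set (median 2.62), against 8.2% over all genes. Their summed level was 2002 and 486 CPM in vector 3 and 4, 2355 and 1208 CPM in TNBS 2 and 3, and 810 and 2214 CPM in IBC 2 and 5, against 168 to 1192 CPM with a median of 348 in the high set. Adipoq, the adipocyte hormone adiponectin, was at 9.33 to 106 CPM against 0.0812 to 52.7 CPM (3.00 ± 0.82, edgeR adjusted p = 0.0184). The sets overlapped for all 12 genes. Without vector 3 and 4, 8 of 12 were higher.

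Of 15 smooth muscle genes 8 were higher and none lower (median 0.62), against 8.2% and 7.38% of all genes, and 4 of 15 without vector 3 and 4. Their summed level was 3813 to 11086 CPM in the low and 2436 to 6138 CPM in the high libraries, with vector 3 the highest. Of 28 genes of enteric neurons and glia, 9 were higher and none lower (median 0.50), and without vector 3 and 4, 9 were higher and 2 lower. The 9 included Calb2 (1.77 ± 0.20), Gfap (1.79 ± 0.26) and Uchl1 (1.10 ± 0.16), each without overlap. Of 9 genes of interstitial cells of Cajal and PDGFRA cells, P2ry1 was higher, though not without TNBS 2 or without IBC 2, and 3 were lower. Ano1, the chloride channel of these pacemaker cells, was at 14 to 73.9 CPM against 80.2 to 332 CPM (-2.16 ± 0.26, edgeR adjusted p = 2.05e-05), while the defining receptor Kit did not pass. Thbs4, a matrix protein, was at 3.70 to 10.9 CPM in 5 low libraries and 60.3 CPM in vector 4, against 125 to 458 CPM (-4.34 ± 0.50, edgeR adjusted p = 1.47e-05).

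B cell transcripts were lower, with fewer calls once vector 3 and 4 were left out. Of 17 genes of B cells and follicles, 13 were lower and none higher (median -1.94), against 7.38% and 8.2% over all genes. Their summed level was 51.8 to 150 CPM in the low and 103 to 411 CPM in the high libraries, so the sets overlapped. Without vector 4, 9 of 17 were lower, and without vector 3 and 4, 2 of 17 (median -1.35). Ms4a1, the B cell antigen CD20, was at 0.142 to 7.13 CPM against 4.07 to 24.5 CPM (-2.30 ± 0.64, edgeR adjusted p = 0.0209). Macrophage and dendritic cell genes were lower in 9 of 20 (median -0.76), and in 7 of 20 without vector 3 and 4. They included Lyz2 (-1.40 ± 0.33), Ccr2 (-1.37 ± 0.30) and Mrc1 (-1.13 ± 0.22).

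Few inflammatory genes passed. Of 19 cytokine and chemokine genes Il22 passed as higher and none as lower, against 8.2% and 7.38% over all genes. Il22 did not pass without vector 4 (edgeR adjusted p = 0.0877), where none of the 19 was called, nor without IBC 2. Of 14 neutrophil genes Csf3r passed as lower, in 20 of 33 alternatives. It lost its call when any 1 of vector 2, 3 or 5, TNBS 1, 2 or 5, or IBC 2, 3, 5 or 6 was left out. Neutrophil genes summed to 8.27 to 504 CPM in the low and 51.1 to 1010 CPM in the high libraries, with the highest value of each set in TNBS 3 and TNBS 5. Of 21 genes of the GPR84 and PI3K-AKT list, Akt2 was higher (0.32 ± 0.08) and Inpp5d, Pik3cg, Pik3r3 and Pik3cd were lower, genes of which Inpp5d, Pik3cg and Pik3cd are known for expression in leukocytes. Pik3r3 did not pass without TNBS 3 or without IBC 5. Gpr84 itself did not exceed 1.30 CPM in any library and did not pass (0.86 ± 0.98, edgeR adjusted p = 0.604). Of 5 tested sex-linked genes none passed.

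Transcripts of neighbouring organs were looked for in both sets. Pancreatic acinar genes summed to 18.6 to 33.2 CPM in the low and 91.0 to 30529 CPM in the high libraries, without overlap. Most of the low sum was Cela1, an elastase, at 16.3 to 26.7 CPM against 84.6 to 2382 CPM (-3.86 ± 0.67, edgeR adjusted p = 0.000734), while Cpb1, Ctrb1 and Clps did not pass. Among liver genes Alb and Ttr were lower, and neither exceeded 51.5 CPM. Of 10 mesothelial genes 3 were higher and none lower, and of 10 skeletal muscle genes 1 and 1. Of 5 prostate, seminal vesicle and bladder genes 2 were higher and 1 lower, against 8.2% and 7.38% over all genes. Skeletal muscle genes summed to 31.8 to 99.6 CPM in the low set. They summed to 200 to 425 CPM in the high libraries rich in Hoxd13 and to 44.2 to 199 CPM in the other high ones. Prostate, seminal vesicle and bladder genes summed to 19.4 to 72.1 CPM in the low and 20.9 to 361 CPM in the high libraries. These sums were not tested. The part of adipocyte, muscle, nerve, B cell, macrophage and pancreatic transcripts in the differences of other genes was not tested.

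The difference was also estimated within each treatment group, 2 low against 4 high libraries. In vector 471 genes (2.26%) were called, 294 (1.41%) higher and 177 (0.849%) lower. In TNBS 596 (2.86%) were called, 321 (1.54%) higher and 275 (1.32%) lower. In IBC 1451 (6.96%) were called, 745 (3.57%) higher and 706 (3.39%) lower, and 166 genes were called in all 3 groups. Of the 3248 genes called over all libraries, 3196 had the same sign in the 3 groups, against 9511 of all 20854. That sign is not independent of the call, since the same libraries gave both. These counts rest on single libraries: without vector 3, 14 genes were called within vector, without TNBS 3, 140 within TNBS, and without IBC 5, 140 within IBC. Without TNBS 5 they were 773, 1299 and 4046.

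**Figure D5:**
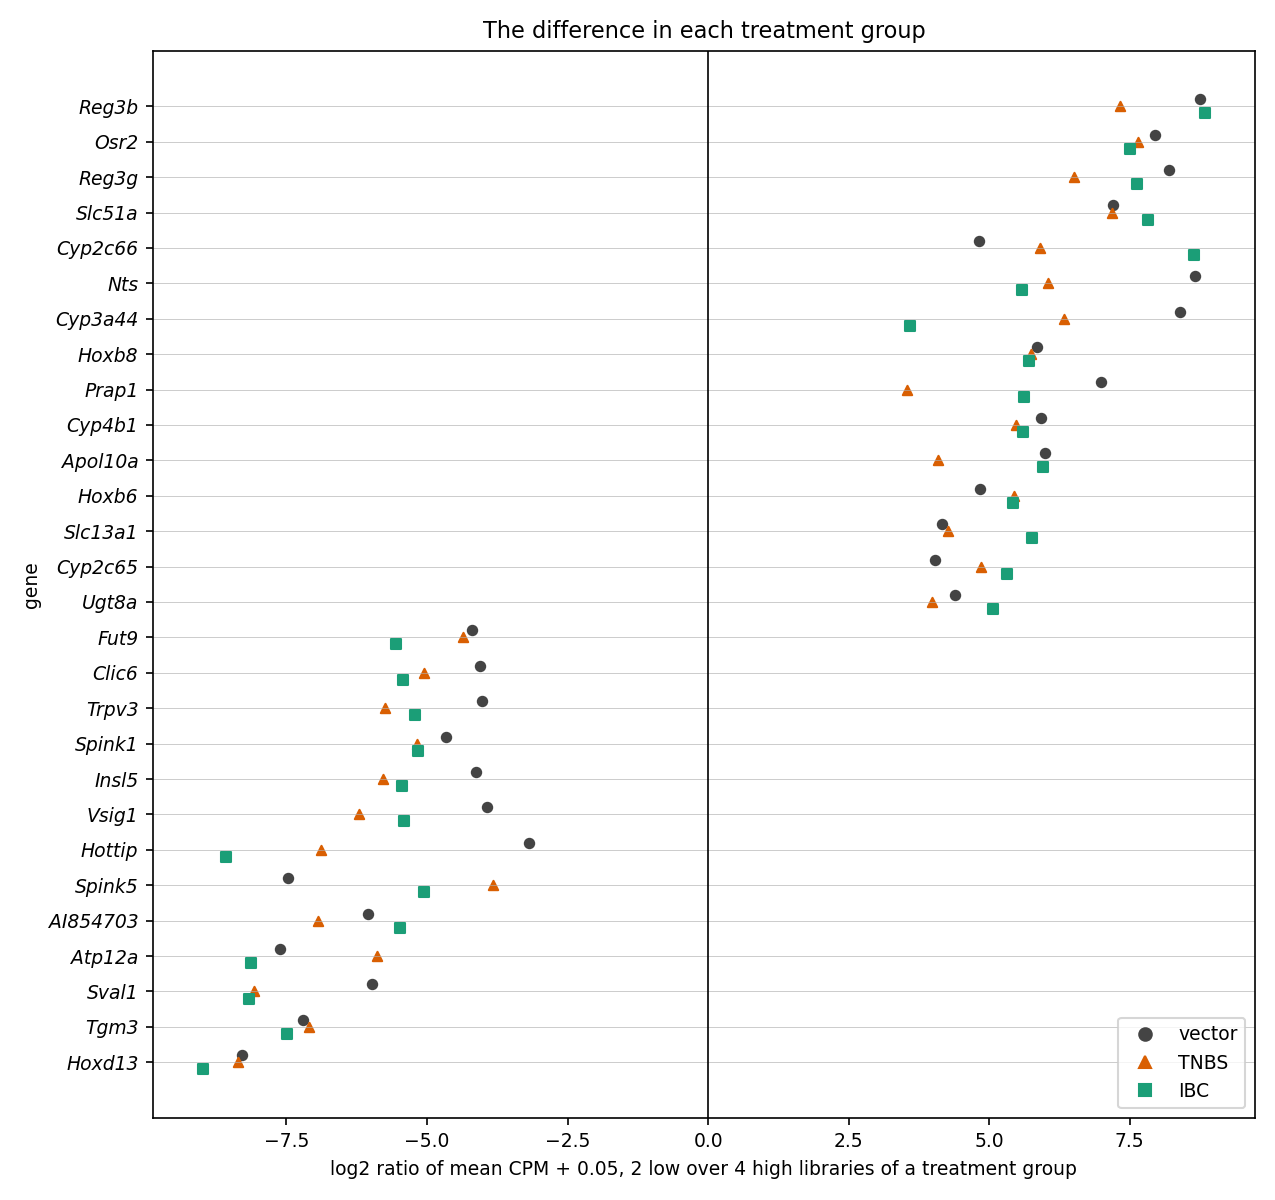
Log2 ratio of mean CPM + 0.05, 2 low over 4 high libraries, in the vector, TNBS and IBC groups for 28 leading genes. Casp14 and Klk15, at 0 counts in the low libraries, are left out. For each of the 28 genes the 3 groups lie on the same side of 0.

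A test of whether the difference between the sets varied with treatment called 2 genes (0.00959%), and 1539 (7.38%) had an unadjusted p under 0.05. DESeq2 was not run for this test. Both called genes are predicted genes at low levels. Gm11430 was at 0 CPM in both low IBC libraries and at 1.34 to 3.20 CPM in the other low ones, against 1.05 to 4.77 CPM in the high libraries (edgeR adjusted p for the interaction = 0.0310). Gm48551 was at 0 CPM in both low TNBS libraries and at 1.10 to 2.83 CPM in the other low ones (edgeR adjusted p = 0.0419). None of the Hox genes passed this test.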

How the data were processed

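Polyadenylated RNA of mouse colon was sequenced in 18 libraries. The deposited table holds raw counts of 35405 genes and, beside them, FPKM (fragments scaled to gene length and library size), per the file headers. Reads were trimmed with cutadapt 1.9, per the submitters' processing notes. How the authors aligned and counted reads, on which build and with which strand setting, is not given in the sources used here. Counts of 4 occurred in 19961 gene and library pairs and counts of 3 in 9977, so what 1 count stands for is uncertain, and counts divided by 4 were tried.

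Counts were analysed with edgeR 4.0.16 in R 4.3.3: genes with low counts were removed by treatment group (20855 kept), totals were scaled by TMM, and quasi-likelihood tests of the set with treatment as covariate used Benjamini-Hochberg adjustment and a threshold of 0.05. Hoxb13 was left out of all counts of genes. SE is the log2 difference divided by the root of F. A model with 6 cells of set and treatment gave values within groups and the interaction. Single library measures were compared by exact permutation tests. On simulated counts with 200 genes changed 4-fold, 87% were recovered for the comparison of the sets. No smaller change was simulated and all other genes were left unchanged, so this share does not describe recovery of smaller differences.

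The sets, gene lists and rules were chosen with earlier results of these data known. Named genes are all Hox genes, the 15 largest differences in each direction among called genes with a mean of at least 5 CPM in the higher set and no overlap of libraries (predicted genes without a name left out), up to 4 genes per list with the smallest p, and called interaction genes. Some genes that this rule or the lists name are not reported here. Others named are said to be chosen after seeing values, or are given as further members of a list. Alternatives were other filters, scalings (DESeq2 1.42.0 size factors among them), tools (DESeq2, limma 3.58.1 on voom weights and on FPKM), a replicate block, and each library left out. The labels do not say that equal numbers pair libraries, and the main model treats them as unpaired. Of 18 same-numbered pairs, 6 had a correlation of deviations over 0.1. That share was not compared with pairs of unlike number, so it does not settle if libraries are paired.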

Additional observations from a re-analysis of the deposited data

Results flagged for a closer look

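Vector 4 stood apart from the other 5 Hoxb13-low libraries. In 58 genes checked, 10 had a lowest or highest value among the 6 low libraries whose gap to its neighbour on the log2(CPM + 0.5) scale exceeded the limit of Dixon's test at 6 values, and vector 4 was that library in all 10. Chance flags about 1 in 20 groups where the groups are independent. The genes checked were the Hox genes and the genes with the largest differences without overlap, picked from these same values. They were measured in the same 6 libraries and may vary together. The 10 therefore cannot be set against that rate, and chance is not excluded by it. On CPM itself, a scale tried after seeing the data, 18 genes exceeded the limit of Dixon's test. Of these, 14 did so through vector 4, 2 through vector 3 (Hoxd10 and Prap1) and 2 through TNBS 3 (Reg3b and Reg3g). On the log2 scale vector 4 was the highest of the 6 for Hoxa6 (4.43 CPM, next 0.642), Hoxa9 (51.36 CPM, next 12.5), Hoxa11 (32.95 CPM, next 12.4), Hottip (5.936 CPM, next 0.158), Sval1 (12.61 CPM, next 1.901) and Insl5 (17.21 CPM, next 5.19). It was the lowest for Hoxb7 (4.911 CPM, next 21.5), Osr2 (15.58 CPM, next 91.1), Slc51a (36.02 CPM, next 199) and Ugt8a (4.101 CPM, next 13.8). For Hoxa6 and Hoxa11 vector 4 lay above every Hoxb13-high library, for Hoxa9 within their range, and for the other 7 genes between the remaining low libraries and the high ones. What sets vector 4 apart was not tested.

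For 2 predicted genes the difference between the sets varied with treatment. Gm11430 was at 0 CPM in both low IBC libraries, while its log2 differences in vector and TNBS were -0.71 and -0.60 (edgeR adjusted p for the interaction = 0.03095). Gm48551 was at 0 CPM in both low TNBS libraries (edgeR adjusted p for the interaction = 0.04193). Neither passed in the alternative with counts divided by 4. The stricter filter removes genes at low levels, Gm11430 among them, and so is no test of such genes.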

How the results depend on the processing

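Of 153 named genes that passed, 98 passed in every one of the 33 alternatives that gave them an adjusted p, and none changed sign. The 3248 calls became 5380 (2838 higher, 2542 lower) with limma-voom library weights and 1499 (687 higher, 812 lower) with the replicate block, where 115 of the 153 named genes still passed. The other tools, filters and scalings gave from 2223 to 4364. The split by limma was 1202 higher and 2053 lower on log2(FPKM + 1), and 1175 and 2190 on log2(FPKM + 0.1). Leaving out 1 library gave 2427 (IBC 5) to 5048 (TNBS 5). Without vector 4, 2906 calls were shared, 89.5% of the 3248 and 84.8% of the 3426 found then. The interaction counted 1 gene without a filter, 0 with a stricter filter, counts divided by 4 or the replicate block, and 0 (without vector 5, TNBS 4, IBC 1, IBC 3 or IBC 4) to 16 (without TNBS 6) with 1 library left out. In between were 6 without TNBS 5, 5 without vector 3, 4 without IBC 2 or IBC 5, and 1 without vector 4 or IBC 6. The stricter filter tested 12291 genes and left out those at low levels. Within vector, 310 genes were called without a filter, 12 with the replicate block, and 14 (without vector 3) to 773 (without TNBS 5) with 1 library left out, among them 217 without vector 2, 245 without vector 6 and 312 without vector 1. Within TNBS, 392 were called with a stricter filter, 15 with the replicate block, and 140 (without TNBS 3) to 1299 (without TNBS 5), among them 288 without TNBS 2 and 382 without TNBS 1. Within IBC, 942 were called without a filter, 67 with the replicate block, and 140 (without IBC 5) to 4046 (without TNBS 5), among them 649 without IBC 6 and 752 without IBC 1. The cause was not tested. The labels do not say if libraries of equal number share an origin, and 4 of 18 libraries correlated best with one of their own number. DESeq2 gave Cyp2c66, Nts, Cyp3a44, Apol10a, Slc13a1, Cyp2c65, Mmp7 and Sct no adjusted p, and 139 of the 153 passed with voom library weights, without Hoxd12, Hoxd13, Casp14, Klk15, Spink5, Fxyd4 and Scnn1g among others. List members outside the rule for named genes were not followed through the alternatives. Alternatives that leave out vector 3 and 4 together, thin the counts or filter by set and treatment were chosen after seeing the data. Genes under about 1 CPM, such as Hoxc6, Hoxc10 and Gpr84, rest on few counts.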

Other observations

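Members of several gene families, grouped by symbol and chosen after their values were seen, differed between the sets. The groups hold a few pseudogenes or like-named genes, such as Ces2d-ps, B3gntl1, Cyp2d34-ps and the antisense Pla2g10os. Over all genes 8.2% were higher and 7.38% lower. Of 12 tested genes with an Apol symbol, most of them apolipoprotein L genes, 8 were higher in the Hoxb13-low libraries and none lower. Among the 8 were Apol7a (log2 difference 2.24 ± 0.24, SE, edgeR adjusted p = 6.73e-06) and Apol6 (1.86 ± 0.18, edgeR adjusted p = 2.18e-06), both without overlap. The 8 include the pseudogene Apol10c-ps, and the 12 include Apold1, which is only named alike. Of 14 carboxylesterase genes 8 were higher and 2 lower, and of 10 Ugt genes 5 were higher and none lower. In the B3gnt family, which extends glycan chains, 2 of 8 were lower and none higher. B3gnt7 stood at 35.7 to 121 CPM in the low and 369 to 1216 CPM in the high libraries (-3.49 ± 0.30, edgeR adjusted p = 8.56e-07), and B3gnt5 at 4.86 to 22 CPM against 77.6 to 139 CPM (-3.58 ± 0.30, edgeR adjusted p = 7.38e-07).

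The Cyp2d family went both ways, as the Cyp2c genes did. Cyp2d26 was at 19.8 to 173 CPM in the low and 3.56 to 15.8 CPM in the high libraries (2.98 ± 0.38, edgeR adjusted p = 3.59e-05), while Cyp2d13 was at 0.865 to 5.81 CPM against 10.8 to 68.8 CPM (-3.47 ± 0.38, edgeR adjusted p = 9.01e-06). Of 9 tested Cyp2d genes 2 were higher and 2 lower. Of 20 phospholipase A2 genes 4 were higher and 8 lower, and all 3 tested Spink protease inhibitor genes were lower.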
